A study of Mus musculus with 16 samples.

Results

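Klf12 and 4 of its Krüppel-like paralogues, Klf3, Klf5, Klf6 and Klf7, were followed through the DNA methylation maps of mouse metaphase II (MII) oocytes, out of 21951 annotated protein-coding genes. Klf12 was selected on its measured gene-body methylation, which was partial in both prepubertal groups and low in both adult groups, so differences between groups in Klf12, also within each age, are given as a description with no test. The 4 paralogues were named with it as family members. All 5 gene bodies were measured in all 16 samples, as were 18209 genes of the annotation for which no sample covered fewer than 5 positions.

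The Krüppel-like factors are transcription factors with zinc fingers at the C-terminal end that bind CACCC and related GC-rich sites. Klf12, also known as AP-2rep, represses Tfap2a, and it shares with Klf3 and Klf8 a motif that binds the corepressor CtBP. Klf5, Klf6 and Klf7 act mostly as activators and are known for roles in proliferation, tissue remodelling and the nervous system. In growing oocytes, CpG methylation is laid down by DNMT3A and its partner DNMT3L, mainly over transcribed gene bodies, while CpG-dense promoters and untranscribed regions stay low. A gene body in an oocyte is therefore usually either highly methylated or nearly unmethylated.

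Each sample was 1 pool of MII oocytes from C57BL/6J × CBA/Ca F1 mice, and no group carried an engineered allele. The in vitro follicle culture group (IFC, n = 4) came from preantral follicles of 13-day-old females. They were grown for 10 days in medium with follicle-stimulating hormone, which gives the labelled age of 23 days. An ovulatory stimulus of recombinant chorionic gonadotropin and epidermal growth factor was given near the end of culture. The prepubertal superovulation group (SO, n = 5) came from 23-day-old females given 2.5 IU of equine chorionic gonadotropin (eCG) followed by human chorionic gonadotropin (hCG). The adult superovulation group (SOA, n = 4) came from females 10 weeks old given the same hormones at 5 IU. The in vivo group (IV, n = 3) came from naturally ovulating females 10 weeks old that received no hormones and were brought into oestrus by male pheromones. IFC and SO share the age of the oocyte and differ in where the follicle grew and in the hormones given. SOA and IV share the age of the female and differ in hormones, and SO against SOA also changes the dose. Oocytes of several females were pooled in each sample, so p-values of tests over samples measure the spread between pools. A level between the extremes can mean that some oocytes are methylated or that all are partly so, and pools cannot tell these apart.

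Methylation was read by post-bisulfite adapter tagging, in which retained cytosines count as methylated calls and converted cytosines as unmethylated ones. The libraries held 5311009 to 8231898 CpG calls (IFC), 5247001 to 19660161 (SO), 5218053 to 23065411 (SOA) and 15644144 to 17275310 (IV). Of the 16 libraries, 9 were under 10000000 calls, among them all of IFC and none of IV, so depth and group are partly confounded. IV1 stood apart. In 10-kb bins that were under 20% in the other groups it averaged 16.3%, against 6.91% to 11.4% in the remaining libraries. As a check of the cell type, regions at the Snrpn, Peg3, Mest and Plagl1 imprints, which oocytes methylate, lay between 93.1% and 95.3% in all samples summed, and the paternally methylated region upstream of H19 lay at 1.76%. Of the start windows of Grb10, also a maternal imprint, the one with the most calls was at 1.80% and the next most covered at 94.5%.

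Klf12 (ENSMUSG00000072294.5) lies on the minus strand at chr14:99870632-100284679 of GRCm38, spans 414048 bp and holds 3810 CpGs, or 9.20 per kb. Of the annotated protein-coding genes, 328 are longer. Its transcripts start at a CpG-dense distal promoter and at internal sites, the first of which (Klf12-201) lies 134915 bp inside the gene. The sequences below were taken from GRCm38, or from RefSeq for the internal promoter, and are written 5′ to 3′ on the strand of each gene with every CpG in capitals. They show what the calls were made on, from a window with few methylated calls to one that was almost fully methylated.

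The first window lies in the first intron beside the distal start (chr14:100283376-100283675, minus strand) and was chosen as the most CpG-rich intronic window within 2 kb of that start. IFC had 3 methylated calls of 16 there (18.75%, Wilson interval 6.59% to 43.0%), SO 0 of 8, SOA 0 of 15 and IV 0 of 20. With so few calls the interval reached up to 32.4% in SO.
Klf12 CpG-dense start, intronic: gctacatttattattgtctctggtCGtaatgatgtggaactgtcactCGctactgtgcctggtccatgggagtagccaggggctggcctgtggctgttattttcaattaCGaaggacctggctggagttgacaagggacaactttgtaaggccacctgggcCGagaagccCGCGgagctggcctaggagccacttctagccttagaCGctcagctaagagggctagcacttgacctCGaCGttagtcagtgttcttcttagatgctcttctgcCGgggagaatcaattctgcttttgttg

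The next window lies deep in an intron (chr14:100104801-100105100, minus strand) and had the most calls of any Klf12 window over 10 kb from a start. IFC had 9 methylated calls of 23 (39.1%) and SO 22 of 51 (43.1%), whereas SOA had 4 of 36 (11.1%) and IV 11 of 66 (16.7%).
Klf12 intronic window with the most calls: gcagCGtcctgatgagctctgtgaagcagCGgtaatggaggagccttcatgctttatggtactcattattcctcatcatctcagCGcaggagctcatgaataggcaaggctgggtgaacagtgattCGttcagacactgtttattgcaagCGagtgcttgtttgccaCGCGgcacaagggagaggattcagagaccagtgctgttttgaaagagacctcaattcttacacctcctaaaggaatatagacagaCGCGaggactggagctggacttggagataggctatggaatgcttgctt

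None of its 9 CpGs was fully methylated in IFC and SO together. The window shows the level of the gene as a whole at single sites. The 250 bases before the internal start Klf12-201 (chr14:100149797-100150046, minus strand) were covered by 3 methylated calls of 5 for IFC, 8 of 32 for SO, 2 of 14 for SOA and 0 of 17 for IV. They hold 1 match to CACCC on either strand, a motif that 17087 of 32851 RefSeq promoters of this length (52.0%) also hold.
Klf12 internal start, 250 bases before: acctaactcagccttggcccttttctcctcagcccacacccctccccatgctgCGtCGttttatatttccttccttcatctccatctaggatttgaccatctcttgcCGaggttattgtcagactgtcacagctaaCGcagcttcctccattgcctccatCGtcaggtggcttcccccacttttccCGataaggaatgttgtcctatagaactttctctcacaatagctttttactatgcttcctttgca

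For contrast, the paralogue windows with the most calls over 1000 bp from a start are given. The window in Klf7 (chr1:64060022-64060321, minus strand) was methylated at 10 of 11 IFC calls, 27 of 27 SO calls, 15 of 16 SOA calls and 24 of 24 IV calls.
Klf7 intronic window with the most calls: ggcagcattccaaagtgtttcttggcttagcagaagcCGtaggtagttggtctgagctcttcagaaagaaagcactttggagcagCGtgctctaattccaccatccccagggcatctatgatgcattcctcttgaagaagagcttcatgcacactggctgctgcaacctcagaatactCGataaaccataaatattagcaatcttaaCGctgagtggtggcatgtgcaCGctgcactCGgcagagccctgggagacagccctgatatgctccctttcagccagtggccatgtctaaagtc

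The window in Klf3 (chr5:64809853-64810152, plus strand) was methylated at 8 of 20 IFC calls, 11 of 29 SO calls, 6 of 30 SOA calls and 16 of 40 IV calls, which is far above the level of Klf3 as a whole.
Klf3 intronic window with the most calls: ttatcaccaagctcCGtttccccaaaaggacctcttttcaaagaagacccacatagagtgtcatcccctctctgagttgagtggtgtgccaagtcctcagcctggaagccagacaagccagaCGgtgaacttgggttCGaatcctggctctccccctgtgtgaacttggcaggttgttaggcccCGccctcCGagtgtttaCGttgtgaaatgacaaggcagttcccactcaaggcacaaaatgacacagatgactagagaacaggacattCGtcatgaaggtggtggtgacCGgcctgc

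Klf12 was partly methylated in prepubertal oocytes and low in adult ones. The level of a gene body is the mean over its covered positions of the percentage of methylated calls, and in Klf12 it rested on 845 to 2841 positions per sample. The 4 IFC samples were at 36.8%, 37.7%, 33.1% and 32.6%, a mean of 35.0% ± 2.60 (SD, n = 4). The 5 SO samples were at 32.0%, 35.8%, 28.4%, 35.6% and 33.7%, a mean of 33.1% ± 3.03 (SD, n = 5). The 2 prepubertal groups overlapped. The SOA samples were at 11.0%, 11.0%, 8.48% and 6.89%, a mean of 9.36% ± 2.04 (SD, n = 4). The IV samples were at 16.0%, 9.61% and 9.69%, a mean of 11.8% ± 3.64 (SD, n = 3), and the highest of them was IV1.

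The 9 IFC and SO samples lay between 28.4% and 37.7% and the 7 SOA and IV samples between 6.89% and 16.0%, with no overlap. The means of 34.0% and 10.4% differ by 23.6 points. A gene was called different where a logistic model of its calls gave an adjusted p of at most 0.05 and the means differed by at least 20 points. That model sums the calls of a group and takes them as independent, so its p-values ignore the spread between pools. Under that rule 0.923% of gene bodies differed between these combined groups (0.555% higher in IFC and SO), and in 0.813% every IFC and SO sample lay above every SOA and IV sample. This is the contrast for which Klf12 was picked. Over all genes the median difference was 0.394 points, and 55 genes had a larger positive difference than Klf12. In all, 102 genes were at least 20 points higher in IFC and SO and 67 at least 20 points lower. The difference in Klf12 was 24.5 points without IV1. Among libraries under 10000000 calls it was 24.5 points, with IFC, SO and SOA but no IV. Among deeper libraries it was 20.8 points, with SO3 to SO5 against IV only. These depth subsets therefore compare different groups.

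**Figure D1:**
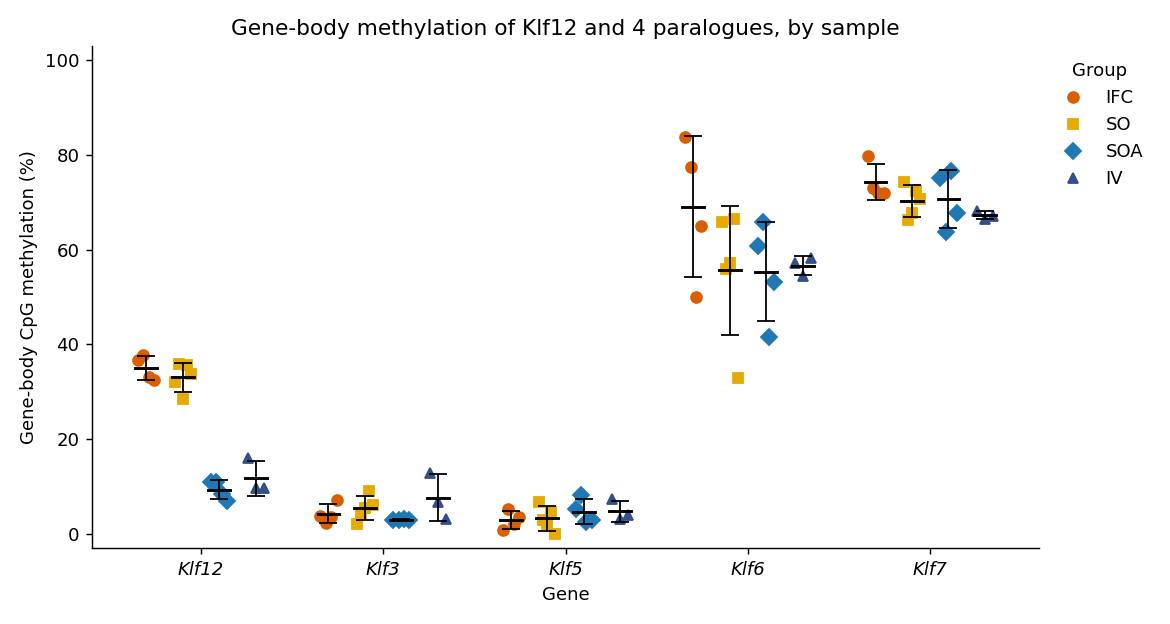
Gene-body CpG methylation in percent (vertical axis) of the 5 genes (horizontal axis), with 1 point per sample, coloured by group, and the mean with SD over samples in black. In Klf12 the 9 IFC and SO samples lie between 28.4% and 37.7% and the 7 SOA and IV samples between 6.89% and 16.0%, while the groups overlap in Klf5 and Klf6.

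Within each age, the groups were close, which was part of the pattern on which Klf12 was selected. IFC exceeded SO by 1.94 points, with a 95% interval of -2.59 to 6.46. That difference was 0.776 points without SO3, 1.04 without IFC2 and 10.6 with at least 3 calls per position. SOA was 2.40 points below IV (difference -2.40, interval -7.88 to 3.09), and without IV1 the difference was -0.292 points.

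On both sides of Klf12, methylation was low in every group. In the 100 kb upstream of the distal start, IFC averaged 9.76%, SO 11.4%, SOA 7.63% and IV 11.2%. The 100 kb downstream of the gene were at 15.1%, 13.4%, 10.9% and 13.4% in the same order. IFC and SO together exceeded SOA and IV by 1.50 points upstream (10.6% ± 3.49, n = 9, against 9.15% ± 3.27, n = 7; two-sided exact permutation test, p = 0.387) and by 2.22 points downstream (14.2% ± 1.93, n = 9, against 12.0% ± 3.00, n = 7; exact permutation p = 0.0939). Of 14 such tests of both sides, 0 had an adjusted p of at most 0.05, and 1, IFC against SOA downstream with 4.25 points, reached an unadjusted exact permutation p of 0.0286 (Benjamini-Hochberg adjusted 0.4). The upstream difference was 0.842 points without SO2, 0.945 without SOA3 and 2.38 without IV1. Without IV1 the downstream difference was 3.28 points (exact permutation p = 0.003996).

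Part of the downstream stretch belongs to the gene in RefSeq, whose Klf12 model ends 4451 bp further on. That tail had 95 methylated calls of 280 in IFC and SO (33.9%, Wilson interval 28.6% to 39.7%) and 21 of 243 in SOA and IV (8.64%, 5.72% to 12.8%), close to the levels inside the gene. Beyond the RefSeq end, the next 100 kb differed by 0.903 points (exact permutation p = 0.466), and by 1.91 points without IV1 (p = 0.0494 in the same permutation test).

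Set against the mean of its 2 sides in the same sample, Klf12 stood 22.6 ± 2.27 points higher in IFC and 20.7 ± 1.52 in SO (SD, n = 4 and 5). It stood 0.117 ± 1.58 points above them in SOA, and the same difference was -0.543 ± 2.01 in IV. In single samples the excess was 18.97 to 25.2 points over IFC and SO and -2.61 to 1.72 over SOA and IV. IV1, the highest adult sample in Klf12, was also the highest adult sample on both sides, and its own excess was -0.405 points. In adult oocytes the gene body and its surroundings were thus both low, and neither was at 0.

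**Figure D2:**
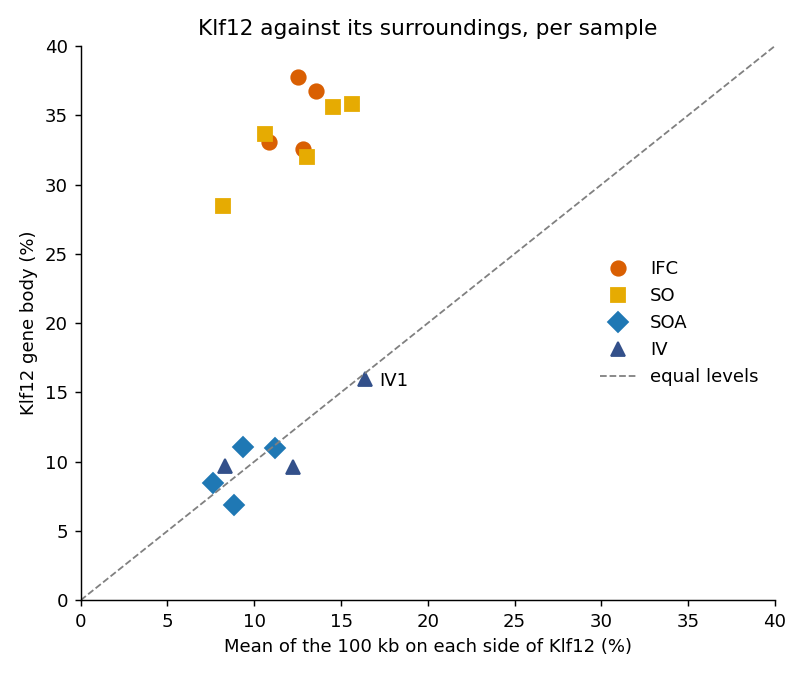
Methylation in percent of the Klf12 gene body (vertical axis) against the mean of the 100 kb on each side (horizontal axis), with 1 point per sample, coloured by group, and a dashed line of equal levels. The IFC and SO samples sit 18.97 to 25.2 points above the line and the SOA and IV samples, IV1 included, within -2.61 to 1.72 points of it.

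The difference ran along almost the whole gene. All 42 bins of 10 kb inside Klf12 had a value in every sample. The mean of IFC and SO exceeded that of SOA and IV in 41 of them, by at least 20 points in 31. The median bin was at 34.7% in IFC and SO (range 2.58% to 57.0%) and at 10.4% in SOA and IV (2.59% to 28.7%), and the median difference was 25.2 points (range -1.51 to 38.2). In 16 bins (38.1%) every IFC and SO sample lay above every SOA and IV sample, where 0.344% of all bins did so. Bins of the gene chosen for this contrast were bound to differ, and the counts are a description. Of 26 upstream and 29 downstream bins with a value, out of 30 on each side, 0 were free of overlap, and the median differences were 0.848 and -0.233 points.

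The profile had a shape that both prepubertal groups shared. The bin at the distal start was at 2.58% in IFC and SO and 4.09% in SOA and IV. A stretch of 3 bins at chr14:99950001-99980000 was low in both, with 9.67%, 11.6% and 16.2% in IFC and SO and 4.59%, 6.57% and 7.13% in SOA and IV. The highest bin, at chr14:100050001-100060000, reached 57.0% and 28.7%, with only 5 positions in the least covered sample. Across the 42 bins, the IFC and SO means had Pearson's r of 0.736 and the SOA and IV means 0.602, and r was 0.681 between the prepubertal and adult means. These describe neighbouring bins of the same libraries, which also share base composition. The number of CpGs in a bin had r of -0.159 with the IFC and SO mean.

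Within each age, single bins lay on both sides of 0. IFC was the higher of the prepubertal groups in 25 of the 42 bins, with differences of -15.8 to 26.3 points, and SOA was higher than IV in 12, with -15.7 to 16.0 points. The values of 26.3 and 16.0 came from chr14:100250001-100260000 and that of -15.7 from chr14:100050001-100060000. In each of these bins the least covered sample had only 5 positions.

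**Figure D3:**
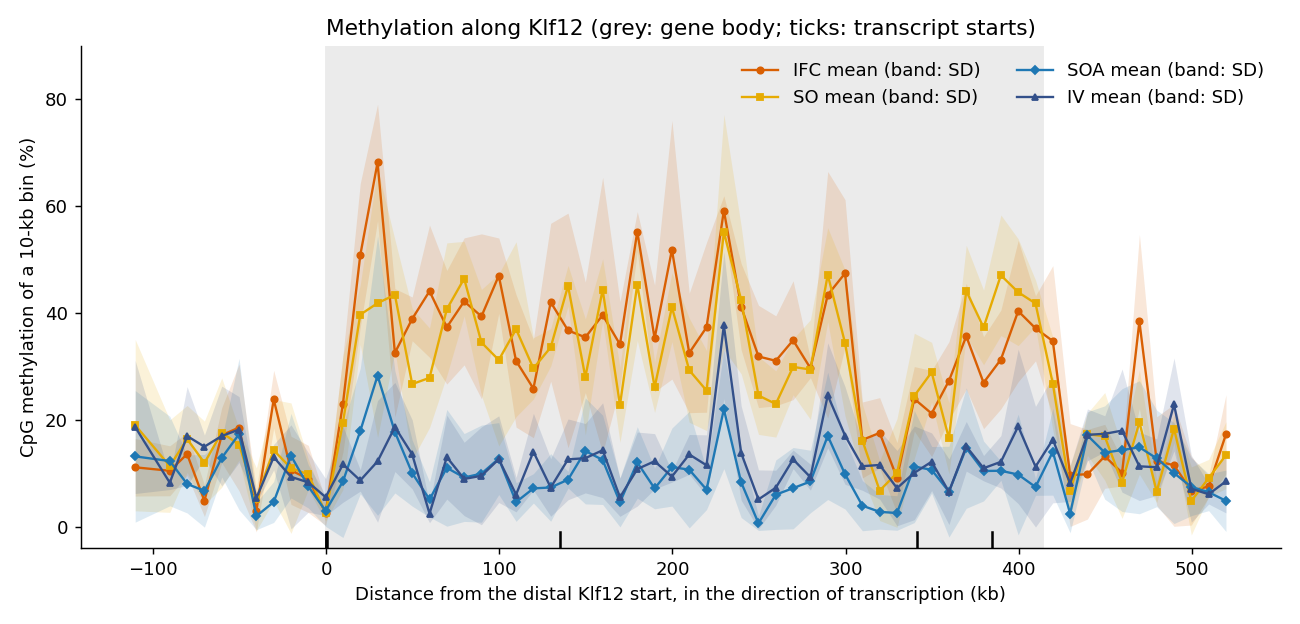
Methylation in percent of 10-kb bins (vertical axis) by distance in kb from the distal Klf12 start in the direction of transcription (horizontal axis), as the mean of each group with a band of 1 SD over samples, the gene body in grey and transcript starts as ticks. The 42 bins inside the gene have a median of 34.7% in IFC and SO and 10.4% in SOA and IV, and the curves come together beyond both ends.

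The distal promoter of Klf12 was nearly bare in all groups, and a difference there was not detectable at this depth. The window from 1000 bp before to 1000 bp after the distal starts holds 115 CpGs, and 4 of 299 calls were methylated in IFC and SO (1.34%, Wilson interval 0.521% to 3.39%) against 6 of 289 in SOA and IV (2.08%, 0.955% to 4.45%). Methylation was still 6.94% in IFC and SO at 2 to 5 kb inside the start and 9.84% at 5 to 10 kb, against 12.9% and 4.06% in SOA and IV. It reached 36.3% (31.2% to 41.7%) at 10 to 20 kb and 43.3% (40.2% to 46.5%) at 20 to 50 kb in IFC and SO, where SOA and IV were both times at 15.3%. The other end of the gene was sharper. The last 5 kb of the gene were at 38.2% in IFC and SO and 9.36% in SOA and IV, and the first 5 kb beyond the RefSeq end at 17.6% and 19.6%.

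The internal starts did not all behave as the distal one. Around Klf12-201, 27 of 95 calls were methylated in IFC and SO (28.4%) and 5 of 91 in SOA and IV (5.49%). Klf12-202, which starts 340971 bp inside the gene, stayed low in both, with 9 of 158 calls (5.70%) and 6 of 137 (4.38%). Klf12-206, the start nearest the end, had 61 of 132 calls methylated (46.2%) against 18 of 173 (10.4%). There the 2 prepubertal groups were apart, with 28.3% in IFC (Wilson interval 18.0% to 41.6%) and 58.2% in SO (47.2% to 68.5%). These intervals cover counting error only, since sequenced copies without molecular identifiers are not independent molecules.

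At the level of single CpGs, most of Klf12 was intermediate in prepubertal oocytes, and few sites were fully methylated. With the libraries of IFC and SO summed and both strands of a CpG combined, 1534 CpGs of Klf12 had at least 5 calls. Of these, 67.9% were between 20% and 80% methylated, 30.1% were under 20% and 2.02% were over 80%. In SOA and IV the shares of 1565 CpGs were 20.8%, 78.5% and 0.639%. The CpGs of the 100 kb on each side were 26.0% intermediate in IFC and SO and 23.5% in SOA and IV. Klf7 differed in kind, with 66.8% of its CpGs over 80% and 15.6% intermediate in IFC and SO. With few calls per CpG, the median being 7, sampling alone widens the intermediate class.

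Positions with exactly 2 calls in a library gave another view. In IFC and SO, 696 of 2035 such positions in Klf12 had 1 call of each kind (34.2%, Wilson interval 32.2% to 36.3%). Had the calls been independent, with the same level at every position, 44.5% would have done so. Levels that differ between positions lower the share too, so a lower share cannot tell dependence between calls from differing levels. In Klf7 the share was 8.31% (49 of 590), where independence gives 39.9%. The share in Klf12 was 14.3% in SOA and IV, where independence gives 18.7%, and that of its sides in IFC and SO was 14.2%, where it gives 19.9%.

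**Figure D4:**
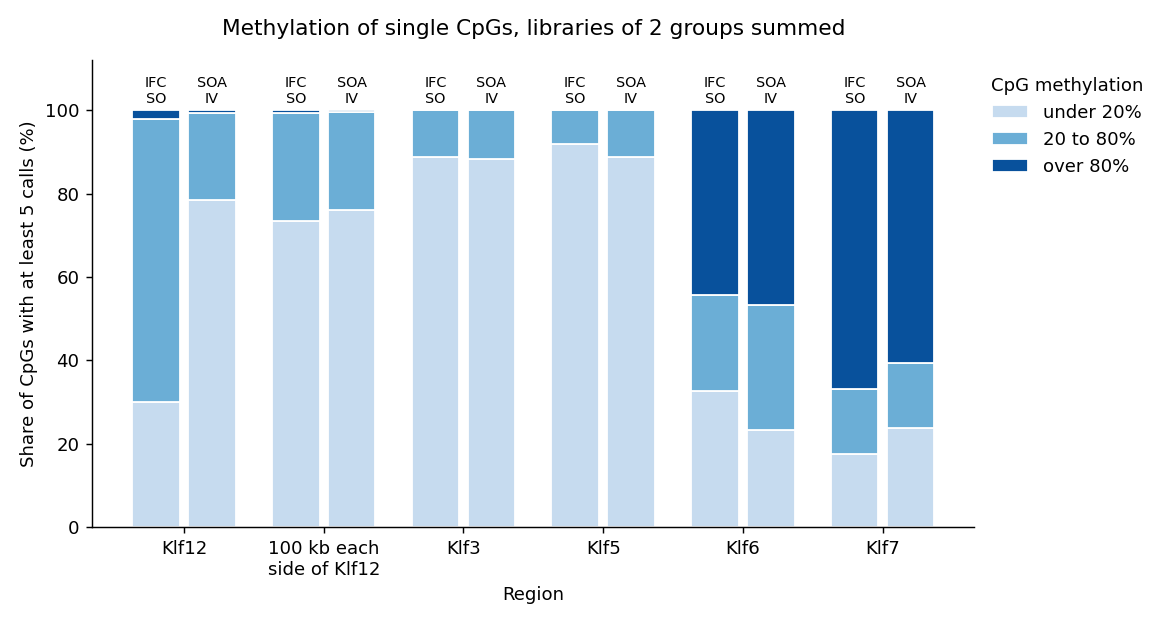
Share in percent of CpGs with at least 5 calls (vertical axis) that were under 20%, between 20% and 80% and over 80% methylated, for each region (horizontal axis), with the libraries of IFC and SO and of SOA and IV summed. Intermediate CpGs make up 67.9% of Klf12 in IFC and SO and 20.8% in SOA and IV, while 66.8% of Klf7 CpGs in IFC and SO are over 80%.

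Within the 9 IFC and SO samples, 4 pairs of parts of the Klf12 gene body were compared, and none differed at an adjusted p of at most 0.05. The plus and minus strands were at 34.2% and 34.4%, a difference of -0.156 points (two-sided exact sign-flip permutation test, p = 0.926, smallest possible 0.00391). Exons, of which 18 positions at least were covered, exceeded introns by 3.63 points (exact permutation p = 0.254), where the median gene had -2.27. The groups went opposite ways, with exons at 31.8% and introns at 35.2% in IFC, and exons at 42.1% and introns at 32.8% in SO. Soft-masked repeat sequence was at 37.9% and the remainder at 33.5%, a difference of 4.41 points (exact permutation p = 0.0391, adjusted over 4 features 0.0781), much like the median gene with 4.05. From the start to the midpoint of the gene the level was 36.0% and from there to the end 32.0%, a difference of 3.95 points that was positive in 7 of 9 samples (exact permutation p = 0.0156, adjusted 0.0625). The median of 15335 genes for that measure was -18.9 points, towards the end of the gene.

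None of the 4 paralogues was called different between any 2 groups. Klf3 (ENSMUSG00000029178.14, chr5:64803388-64832901, plus strand), a repressor that binds CtBP as Klf12 does, was nearly unmethylated at 129 to 550 positions per sample. Its mean was 4.28% ± 2.04 for IFC (n = 4), 5.45% ± 2.54 for SO (n = 5), 2.97% ± 0.0937 for SOA (n = 4) and 7.70% ± 4.91 for IV (n = 3). The SOA samples lay between 2.88% and 3.10% and the IV samples at 12.97%, 6.85% and 3.27%, a difference of -4.72 points in which every SOA sample was below every IV sample (exact permutation p = 0.0286, the smallest that 4 against 3 allow; limma adjusted p = 0.859). Without IV1, the difference was -2.09 points (exact permutation p = 0.0667, the smallest that 4 against 2 allow). Every SOA sample lay below every IV sample in 2.49% of gene bodies.

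Klf5 (ENSMUSG00000005148.8, chr14:99298691-99315036, plus strand), a proliferation-linked activator, lies on the same chromosome as Klf12 and was about as low as Klf3. IFC averaged 2.96% ± 1.92, SO 3.28% ± 2.55, SOA 4.73% ± 2.58 and IV 4.81% ± 2.21 (n as above), and single samples ranged from 0% in SO5, where 0 of 169 calls were methylated, to 8.17% in SOA2. Prepubertal and adult samples overlapped and differed by -1.62 points (interval -3.99 to 0.741; exact permutation p = 0.163). The 555595 bp between Klf5 and Klf12 were at 45.6%, 45.5%, 45.3% and 44.5% in IFC, SO, SOA and IV.

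Klf6 (ENSMUSG00000000078.7, chr13:5861482-5870394, plus strand), an activator with a role in tissue injury, is the shortest member and the least certain, with 14 to 124 positions per sample. IFC averaged 69.1% ± 14.9, SO 55.6% ± 13.6, SOA 55.4% ± 10.5 and IV 56.6% ± 1.98. IFC exceeded SO by 13.4 points (interval -9.07 to 35.9; exact permutation p = 0.214), by 7.73 without SO5 and by 8.49 without IFC1. IFC was the highest within 1000 bp of the starts of the gene, where, with the calls of a group pooled, 72.6% of 62 IFC calls were methylated, against 33.7% of 196 SO calls, 42.3% of 111 SOA calls and 47.0% of 149 IV calls. The remainder of Klf6 averaged 70.1% ± 24.9 over the IFC samples, 74.8% ± 13.5 over SO, 65.2% ± 11.0 over SOA and 66.7% ± 4.73 over IV, and lay between 67.0% and 69.7% in every group with calls pooled.

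Klf7 (ENSMUSG00000025959.13, chr1:64029447-64122282, minus strand), an activator of neuronal genes, had the usual oocyte pattern of a methylated body and a bare promoter. IFC averaged 74.3% ± 3.77, SO 70.3% ± 3.30, SOA 70.8% ± 6.13 and IV 67.3% ± 0.870, from 181 to 757 positions. Within 1000 bp of its starts, 1.71% of calls were methylated in IFC and SO and 1.52% in SOA and IV, and the remainder of the gene was at 80.7% ± 2.94 (n = 9) and 76.8% ± 3.76 (n = 7). The bins over its ends, which lie mostly outside the gene, were at 2.13% to 7.63%. The first bin wholly inside at the end away from the start was at 79.2% to 87.4%. A pair of inner bins were intermediate in every group, at 44.6% to 59.1% and 32.3% to 42.5%. IFC was above IV by 6.95 points with no overlap (interval 1.12 to 12.8; exact permutation p = 0.0286, smallest possible; limma adjusted p = 0.386), and every IFC sample lay above every IV sample in 8.66% of gene bodies. Without the 1000 bp around its starts, that difference was 3.55 points (exact permutation p = 0.143).

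Over the 4 paralogues and 6 pairs of groups, 24 comparisons were made and 0 were called. Of all gene bodies, 0.911% were called for IFC against SO, 1.31% for SO against SOA, 0.764% for SOA against IV, 2.64% for IFC against SOA, 2.44% for IFC against IV and 1.08% for SO against IV. The largest difference was the 13.7 points of Klf6 between IFC and SOA. Without the 20-point minimum, 8 of the 24 passed the logistic test. In the same order of pairs, 20.7%, 25.7%, 26.4%, 30.4%, 35.2% and 32.4% of all gene bodies passed it. An unadjusted exact permutation p of at most 0.05 was reached in 2, those of Klf3 and Klf7 given above, and by limma 0 of 24 passed. Between the combined prepubertal and adult samples, the differences were -0.0638 points in Klf3 (exact permutation p = 0.970), -1.62 in Klf5, 5.70 in Klf6 (exact permutation p = 0.383) and 2.75 in Klf7 (exact permutation p = 0.221). The Klf6 difference ranged from 2.92 points without IFC1 to 9.28 without SO5. It was 0.699 with pooled calls and turned to -4.49 in the deep libraries, which set SO3 to SO5 against IV only. Without the 1000 bp around starts, the Klf7 difference was 3.85 points (exact permutation p = 0.0328, not adjusted). As a description over the 16 samples, which share their libraries and depth, Pearson's r with Klf12 was 0.0742 for Klf3, -0.279 for Klf5, 0.320 for Klf6 and 0.347 for Klf7.

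Across the wider family, 17 of 18 listed Krüppel-like genes were annotated and tested. In 7 of the 17 every group mean was under 20% and in 6 every group mean was over 50%, which left Klf10, Klf12, Klf15 and Klf16 between. Klf12 passed the rule in the contrasts for which it was picked, which that choice made bound to happen and which is no test. None of the other Krüppel-like genes was called. Klf8, the third CtBP-binding repressor, had means of 90.4% ± 3.87 (IFC), 88.0% ± 2.41 (SO), 86.1% ± 0.469 (SOA) and 84.3% ± 1.61 (IV). None of the 6 activators, the 6 Sin3a-binding factors or the 2 others was called in any comparison, where 0.764% to 2.64% of all gene bodies were called in the pairs. The largest differences in these lists were those of Klf6, of Klf16 between SOA and IV (-15.6 points) and of Klf17 between SO and IV (-16.4 points). The median differences of prepubertal minus adult samples were 0.477 points for the activators, 0.919 for the Sin3a-binding factors and -3.68 for the 2 others, beside 0.394 for all genes. The 3 CtBP-binding repressors had 3.79, but that list holds Klf12, which was picked on this contrast. Of its other genes, Klf8 was at 3.79 points and Klf3 at -0.0638.

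Among the 9 Sp factors, the zinc-finger proteins closest to the Krüppel-like factors, Sp6 was called in every comparison of a prepubertal with an adult group. Sp6, known for its role in tooth enamel and limb development, was at 32.4%, 26.4%, 49.6% and 28.0% in IFC and at 51.1%, 33.0%, 33.2%, 29.0% and 31.8% in SO. It was at 17.8%, 9.67%, 18.5% and 7.08% in SOA and 16.3%, 10.3% and 10.2% in IV, so the prepubertal and adult samples did not overlap. The combined difference was 22.1 points (exact permutation p = 8.74e-05, the smallest possible; limma adjusted p = 0.00139), and it rested on 46 to 246 positions per sample. By limma the 4 pairs had adjusted p-values of 0.0913 to 0.162. The pair calls rested on single libraries. Without SO1, SO exceeded SOA by 18.5 points and IV by 19.5, and without IFC3, IFC exceeded SOA by 15.7 points and IV by 16.7, all under the 20-point minimum. IFC against SOA also fell under it without SOA2 (19.6 points) and without SOA4 (18.8 points). The combined difference was 20.1 to 23.2 points with a library left out. Sp6 was 1 of 9 genes on its list, beside 0.923% of all gene bodies called in the combined contrast, and the remaining Sp factors were not called. Of the 9 genes that encode the CtBP corepressor complex or its target Tfap2a, 0 were called, where 0.764% to 2.64% of all gene bodies were in the pairs, and the largest difference was 14.2 points, in Ctbp1 between IFC and IV. Tfap2a had means of 11.2% (IFC), 12.2% (SO), 5.39% (SOA) and 7.03% (IV).

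**Figure D5:**
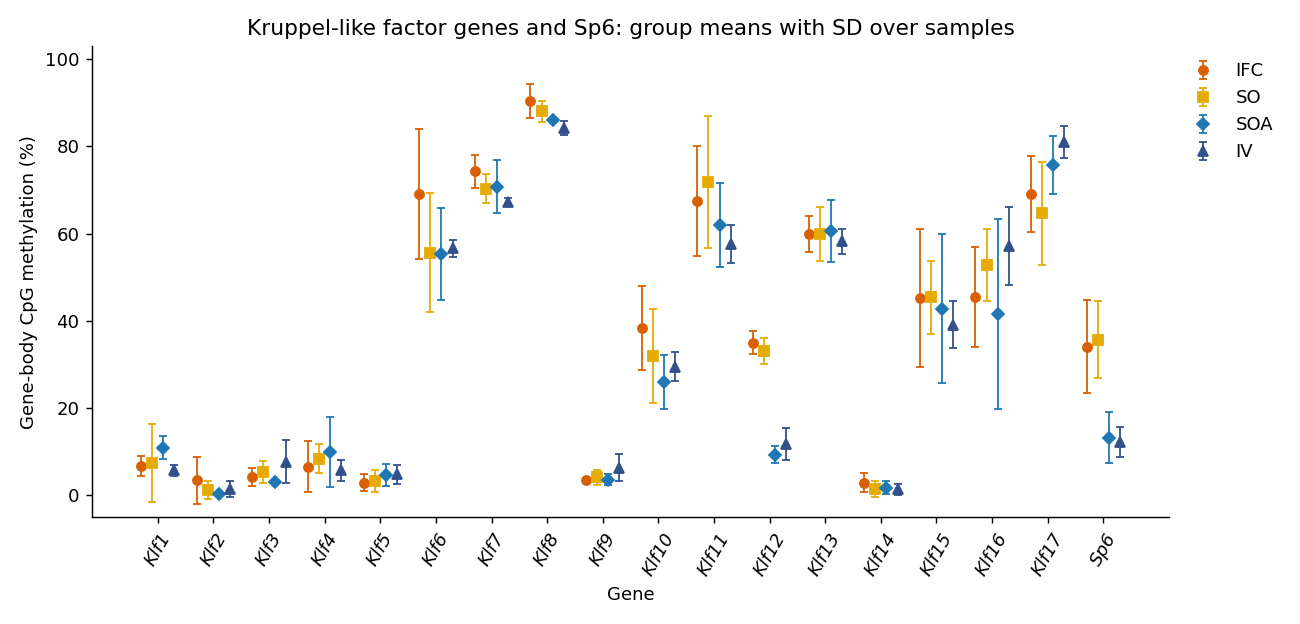
Gene-body CpG methylation in percent (vertical axis) of the 17 Krüppel-like genes and Sp6 (horizontal axis), as the mean of each group with SD over samples. Klf12 and Sp6 show IFC and SO above SOA and IV by 23.6 and 22.1 points, while 7 of the 17 are under 20% and 6 over 50% in every group.

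The genes whose levels followed Klf12 most closely over the 16 samples, among 5381 for which no sample covered fewer than 100 positions, were Zfp521 and Zbtb20 (Pearson's r of 0.980 each), Pakap (0.974), Prkag2 (0.971) and 1700025G04Rik (0.970). Klf12 was picked for its split between prepubertal and adult samples, so a high r mostly reflects the same split. Whether these genes followed Klf12 within a group was not tested. None of these genes fell to the level of Klf12 in adult oocytes. Zfp521 had means of 64.4% (IFC), 59.0% (SO), 28.6% (SOA) and 27.1% (IV), and Zbtb20 of 56.5%, 56.5%, 39.0% and 38.4%. Of the annotated genes within 1 Mb of Klf12, none was called in any comparison, where 0.764% to 2.64% of all gene bodies were called in the pairs. Rpl36a-ps1 had too few positions to be tested. Bora, Dis3 and Pibf1 were between 69.6% and 79.8% in every group, Prr30 and Klf5 were between 2.96% and 18.0%, and Mzt1 had means of 44.2% (IFC), 28.5% (SO), 29.4% (SOA) and 34.1% (IV).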

How the data were processed

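DNA methylation was measured by post-bisulfite adapter tagging in 16 pools of MII oocytes. Per the submitters' processing notes, reads were trimmed with Trim Galore 0.4.4 (cutadapt 1.9.1) and mapped with Bismark 0.19.0 to GRCm38, and duplicates were removed according to the study. Each deposited file gives, per position and strand, the percent methylated with its methylated and unmethylated call counts. The authors applied no further normalization to these counts. CBA/Ca variants that change a C to a T read as unmethylated, in all groups alike.

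A region's level in a sample was the mean percent over covered positions, with at least 5 positions required. Coordinates and starts came from the GENCODE annotation of GRCm38 and RefSeq. Single regions were tested with two-sided exact permutation tests over samples, except differences between groups inside Klf12. Intervals of differences used the pooled SD (95%). Gene bodies were tested across the whole table with a logistic likelihood-ratio test of the calls, Benjamini-Hochberg adjusted p of at most 0.05 and at least 20 points, and with limma 3.58.1 (R 4.3.3). Python 3.11.15, numpy 2.4.6 and scipy 1.17.1 were used. The exact permutation and logistic tests were tried on simulated data. The calls simulated for the logistic test held no spread between pools, so they cannot show how it behaves with such spread. Shares of calls carry 95% Wilson intervals. Libraries held 5218053 to 23065411 calls.

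The members and gene lists were chosen with earlier results of these data known. Genes named were the 5 members, list genes that were called (or the one with the largest difference), genes within 1 Mb of Klf12 and the 5 genes with the highest Pearson's r to Klf12. Klf8, Klf10, Klf15 and Tfap2a fall outside that rule and were named after their values were seen. The RefSeq tail, the 2-call positions, the sequence windows and the start and end stretches were chosen after values were seen. Alternatives are given in the closing section.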

Additional observations from a re-analysis of the deposited data

Results flagged for a closer look

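Samples that lay far from the others of their group were looked for in 24 groups of 4 or 5 samples (Dixon's criterion at 95%), of which chance marks about 1 in 20. Of these, 2 were marked. The Klf7 gene body was at 79.9% in IFC1, against 72.0% to 73.1% in the other IFC samples. The Sp6 gene body was at 51.1% in SO1, against 29.0% to 33.2% in the other SO samples. The IV group, with 3 samples, was not examined in this way, although IV1 was the highest of it in Klf12, Klf3, Klf5, Klf7 and Sp6.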

How the results depend on the processing

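Klf12 kept its direction between prepubertal and adult samples, the contrast for which it was picked, under all 23 alternatives (20.8 to 24.5 points). As these samples did not overlap, leaving out a library could not reverse it. IFC minus SO stayed positive under its 18 alternatives (0.776 to 10.6 points, the highest with at least 3 calls per position), and SOA minus IV stayed negative (-3.47 to -0.292 points). The share of Klf12 bins without overlap was 77.3% with 20-kb bins. It was 57.1% with at least 20 covered positions, which few of the 42 bins had in every sample. Leaving out each library gave 38.1% to 45.2%. Klf12 was picked for this contrast, and the share over all bins of the genome was not taken at these settings. The downstream difference was 1.80 to 3.28 points when each library was left out, highest and past the threshold without IV1. Beyond the RefSeq end, an alternative chosen after seeing the data, it was 1.91 without IV1.

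Of the paralogue comparisons, 1 was called with a 10-point minimum and 0 to 1 with a library left out (1 without IFC3). Exact p-values of at most 0.05, 2 as reported, numbered 1 with pooled calls, 1 after thinning to the shallowest library, 0 without 1000 bp around starts, 0 to 3 with a library left out, and 0 by limma with and without the replicate block. Both were pairs of 4 against 3 samples, where leaving out a library of the pair allows no exact p below 0.0667 or 0.1, so those losses follow from group size. The small Klf3 difference between ages turned to 0.0676 points without soft-masked sequence and 0.964 in shallow libraries, which hold no IV. It ranged from -0.587 to 1.26 with a library left out. In Klf6 the difference between ages was -4.49 points in deep libraries, which set SO against IV only. There IFC minus SO was -4.75 without the starts and 7.73 to 19.8 with a library left out, all libraries otherwise kept. In Klf7, leaving out the starts moved the age difference past an unadjusted threshold (3.85 points, exact permutation p = 0.0328) and IFC minus IV below it (3.55 points, exact permutation p = 0.143). The cause was not tested.

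The Sp6 pairs, an alternative chosen after seeing the data, were not called with a quasi-binomial F test (adjusted p 0.0756 to 0.171), and the combined contrast was (adjusted p = 0.000169).

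Counts of gene bodies called, in the order IFC against SO, SO against SOA, SOA against IV, IFC against SOA, IFC against IV, SO against IV and prepubertal against adult, were 170, 241, 143, 487, 466, 206 and 168. With a quasi-binomial F test they were 1, 16, 0, 72, 16, 1 and 109. With a 10-point minimum they were 1143, 1256, 939, 1893, 2275, 1360 and 1092, and with 30 points 18, 48, 15, 93, 97, 37 and 20. With at least 20 positions they were 82, 119, 66, 258, 297, 120 and 93. By limma they were 10, 46, 0, 136, 100 and 35 in the pairs, and pooled calls gave 72 for SOA against IV. Leaving out libraries gave 186 to 271, 243 to 447 (447 without SOA4), 126 to 422 (422 without SOA4), 504 to 633, 511 to 617, 202 to 267 and 159 to 194.

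Samples of different groups were also compared by replicate number, with r values that are not those of the methylation levels themselves. The paper reports that the levels were highly correlated among all replicates. Same-numbered samples of IFC and SO had r of 0.0389 to 0.162, with 1 of 4 pairs over 0.1. Differently numbered ones had r of -0.122 to 0.0575, with 0 of 16 over 0.1. The highest same-numbered r was also the higher for IFC with SOA and SO with SOA. For IFC, SO and SOA with IV it was the lower. The numbers were not taken as pairs, and whether they mark shared batches was not tested. The fit with the replicate block kept only numbers present in both groups, so it dropped libraries in every pair but IFC against SOA. With the block, limma called 0 gene bodies in each of the 6 pairs. Klf12 differed by 2.08 points for IFC minus SO and by -1.57 for SOA minus IV. These equal the differences without SO5 and without SOA4, so they come from the dropped library. Depth limits the level of a single CpG, with a median of 7 calls in the summed libraries among Klf12 CpGs with at least 5, and some results had no value at 3 calls per position.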
